A study of Ursus arctos with 5 samples.

Results

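Mitochondrial carriers, the protein import machinery, mitochondrial dynamics proteins, matrix and inner membrane proteases and coenzyme Q enzymes were followed in the gastrocnemius muscle of grizzly bears (Ursus arctos) during hibernation. The members are all transcripts whose gene name starts with SLC25A, TIMM, TOMM, VDAC, CHCHD, LONP, AFG3L or COQ followed by a digit, or is UCP1 to UCP3, MFN1, MFN2, OPA1, DNM1L, IMMT, CLPP or CLPX. The rule found 97 transcripts of 39 genes, out of 9093 transcripts of 4873 genes that carry a gene name and 26614 transcripts in all. CHCHD genes, MFN1, DNM1L, UCP1, UCP3, SLC25A4, SLC25A20, VDAC2 and VDAC3 were not analysed here.

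Biopsies were taken from 2 captive bears, a subadult and an adult, in October during activity and again in February during hibernation. The states differ by season, by feeding, which stopped early in November, and by the dose of the tiletamine and zolazepam given before the biopsies under isoflurane, which was lower in hibernation. Each bear gave 1 single-end Illumina library per state, so there were 4 libraries, 2 per state, and both states came from the same animals. The sample labels put both bears at adult (10 years) and hold 1 sample per state, whereas the deposited table has a column for each bear and state.

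Nearly all mitochondrial proteins are encoded in the nucleus, made in the cytosol and threaded through the translocase of the outer membrane (TOM) and the translocases of the inner membrane (TIM). Small molecules cross the outer membrane through the voltage-dependent anion channels and the inner membrane through the SLC25 carriers, which exchange adenine nucleotides, phosphate, citrate, oxoglutarate and other metabolites. MFN2 and OPA1 fuse the membranes, IMMT holds cristae junctions together, LONP1, CLPP and AFG3L2 degrade damaged proteins, and the COQ enzymes make coenzyme Q, the electron carrier between the respiratory complexes. In skeletal muscle these systems serve the mitochondria, which supply part of the ATP for contraction.

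Values are RPKM, the authors' read number of a transcript divided by its length and by the aligned reads of the library. The steps between low values corresponded to 44.7 to 54.2 M aligned reads per library, and a member transcript had between 32 and 18016 reads in a library. Every deposited transcript was at 1 RPKM or more in each library, so a transcript that dropped below this level in any library was not analysed here, and changes close to 1 RPKM are bounded by it. Of the skeletal muscle markers only TTN carried a name. Each marker was taken by its transcript with the most reads, which need not stand for the whole gene. That of TTN stood at 699.7 RPKM in hibernation against 794.5 in activity for the subadult, and at 154.9 against 597.8 for the adult. The bears differed in fibre markers in both states. The summed RPKM of 4 of 10 fast fibre markers was 7260 (hibernating) and 9640 (active) for the subadult, against 13746 and 13978 for the adult. The sum of 5 of 9 slow fibre markers was 6348 and 5665 for the subadult, against 2673 and 3088 for the adult. Single markers did not all follow these sums. ATP2A2, CASQ2 and TPM3 were higher in hibernation in both bears, MYH7 was lower in both, and MYL3 was higher only in the subadult. Among the fast markers MYH2 was higher in both bears, and ATP2A1, MYH1 and TNNC2 were lower in both. The summed level of 5 of 10 connective tissue markers was 720.9 RPKM in the active subadult and 194.8 to 350.5 in the other libraries. Of the 5, COL1A1 (193.1 RPKM), SPARC (404.3) and FN1 (4.88) were highest in the active subadult, while COL3A1 (116.1) and COL1A2 (2.59) were lowest there. Fat cell markers were represented by LPL and PLIN4 alone (95.6 to 191.5 RPKM summed), endothelium by PECAM1 (7.53 to 12.97) and blood or immune cells by CD68 (3.28 to 7.12), and none of 4 brown fat markers carried a name. In bulk muscle, fewer cells of a type and less RNA per cell cannot be told apart.

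The levels of the 39 genes, each taken by its transcript with the most reads, spanned from a mean of 1.43 to 359.1 RPKM with a median of 8.05, against a median of 4.90 over all 4873 genes. Only VDAC1 and the oxoglutarate carrier SLC25A11 exceeded a mean of 100 RPKM, 14 genes lay between 10 and 100, and 23 lay below 10. The leading transcript was shorter than 1000 bases in 11 genes. It need not stand for the whole gene, so "most abundant" below ranks these transcripts and not the genes in muscle. The highest of the 4 libraries exceeded the lowest by a median of 1.66-fold over member genes, against 1.62-fold over all genes. Of the 38 pairs of neighbours in the order of levels, 35 overlapped in the range of their libraries, and 3 did not.

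**Figure D1:**
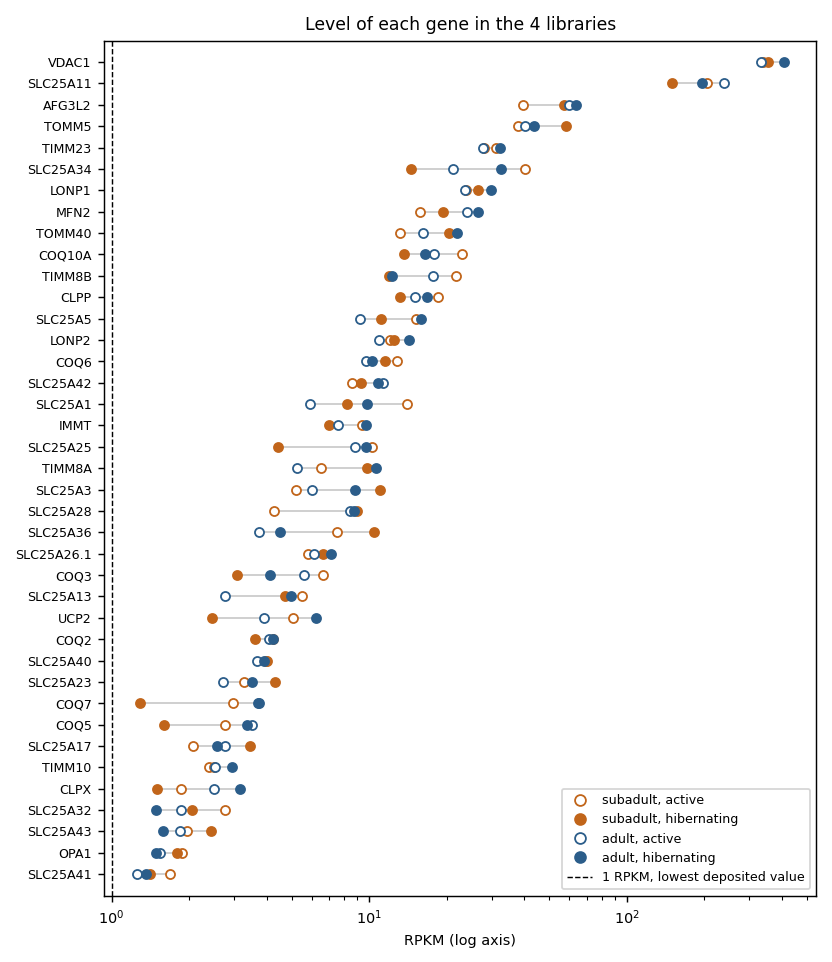
RPKM on a log axis (x) of each of the 39 genes (y, ordered by mean level) by its transcript with the most reads. Open circles are active and filled circles hibernating libraries, in orange for the subadult and blue for the adult, and the dashed line marks 1 RPKM, the lowest deposited value. VDAC1 and SLC25A11 stand above 100 RPKM, and in SLC25A34 the 4 libraries spread from 14.5 to 40.4.

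No member passed the test between the states after correction. With 2 libraries per state the smallest two-sided p that an exact permutation test can give is 0.333. The test was therefore limma on log2(RPKM + 0.5), fitted over all 9093 annotated transcripts, and the log2 changes below are on this scale. Its model had no term for the bear, so the SE and p include the difference between the bears. A fit with the bear as a block was run as an alternative. Of the 97 member transcripts, 0 had an adjusted p under 0.05, and 0 of the 9093 annotated transcripts had one (percent called 0). The members' adjusted p ranged from 0.541 to 0.999. At an unadjusted p under 0.05, 5 member transcripts were higher in hibernation, 5.15% against 7.19% of all annotated transcripts, and 4 were lower, 4.12% against 1.89%. The higher transcripts belong to COQ2, SLC25A3, SLC25A28, TIMM8A and TOMM40, and the lower ones to COQ3 and TIMM8B, with 2 transcripts each. Each transcript was also given a score after the description of NOISeq. It is the fraction of all differences between subadult and adult libraries of the same state that a transcript's change exceeds, both as a ratio and in absolute size. The score reached the threshold of 0.8 for 1 member transcript that was higher in hibernation (1.03%, against 2.10% of all annotated) and for 1 that was lower (1.03%, against 1.51%). The score is a rank against the spread between bears and not a p-value.

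Without a test, counts of transcripts by direction placed the members below the background for higher and above it for lower values in hibernation. Both hibernating values exceeded both active values in 19 member transcripts (19.6%, against 34.6% of all annotated), and both lay below in 15 (15.5%, against 8.80%). Under median-ratio scaling the balance turned to 7 higher (7.22%, against 19.3%) and 33 lower (34.0%, against 18.1%). Hibernation was higher in both bears for 34 member transcripts (35.1%, against 47.8%), lower in both for 28 (28.9%, against 17.2%) and opposite in the bears for 35 (36.1%, against 34.9%). In neither direction was the share of large changes above the background: a change of at least 1.5-fold in both bears occurred upward in 2 member transcripts (2.06%, against 4.88%) and downward in 1 (1.03%, against 1.42%). Transcripts of a gene share sequence, and how reads matching several transcripts were assigned is not given in the sources used here. These counts are thus not over independent items, and all 6 COQ10A transcripts are among the 15 lower ones. Over genes, each taken by its transcript with the most reads, 10 of 39 were higher without overlap (25.6%, against 35.8% of all genes). In the other direction 4 were lower without overlap (10.3%, against 8.11%).

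By gene, using the transcript with the most reads, 15 of 39 were higher in hibernation in both bears (38.5%, against 48.7% of all genes), 8 were lower in both (20.5%, against 16.1%) and 16 differed in opposite directions (41.0%, against 35.1%). The median log2 change over member genes was -0.15 for the subadult and 0.15 for the adult, whereas over all genes it was 0.13 and 0.17. These directions depend on the scaling of the libraries. Scaling by the median ratio shifted the log2 changes of the subadult by -0.13 and those of the adult by -0.20, after which 7 member genes were higher in both bears, 15 lower and 17 opposite, against 1507, 1507 and 1859 of all genes. The mean log2 change of both bears, taken without its sign, had a median of 0.24 over the 39 genes. The log2 difference between the bears, taken without its sign in each state and then averaged, had a median of 0.30. Opposite changes cancel in the first value but not in the second, so the order of these medians is partly set by how they are defined. The first value exceeded the second in 14 member genes, 35.9%, against 43.9% of all genes.

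**Figure D2:**
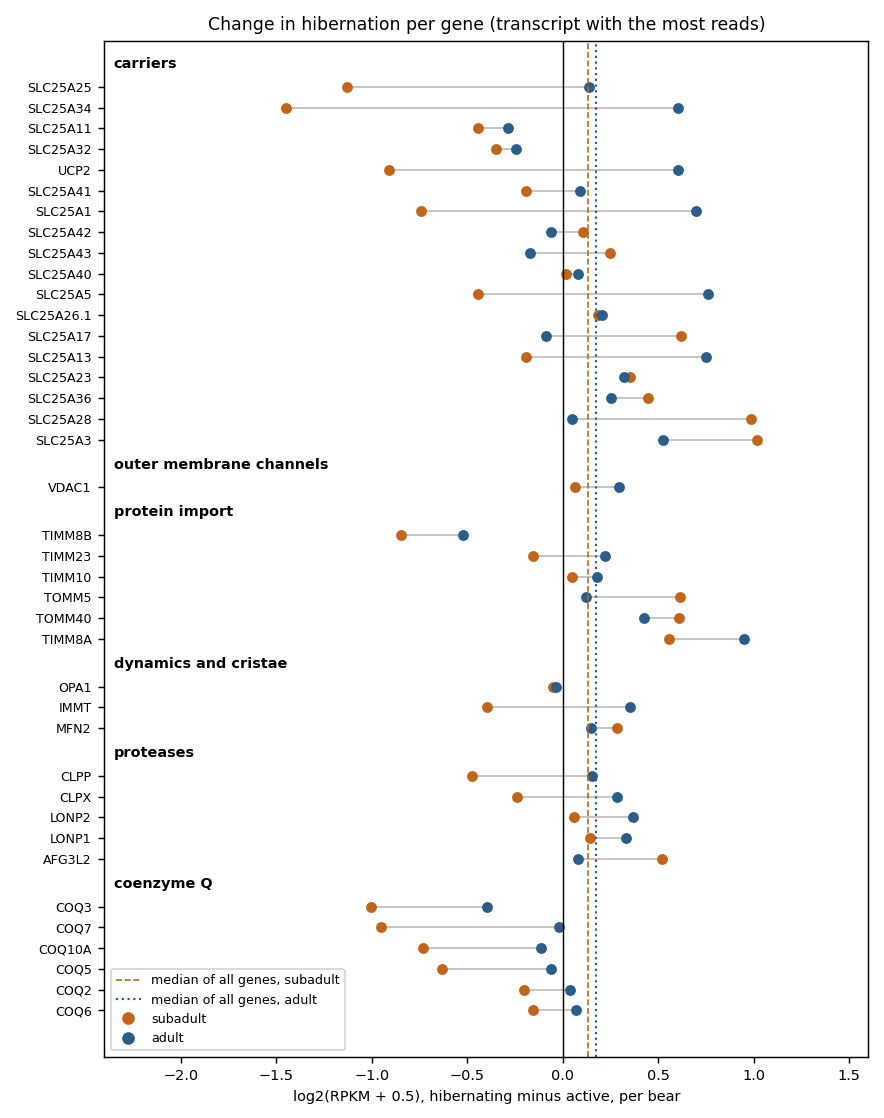
Log2 change of RPKM + 0.5, hibernating minus active (x), for each of the 39 genes grouped by role (y), in the subadult (orange) and the adult (blue), with a grey line joining the bears. The dashed and dotted lines are the medians over all genes, 0.13 and 0.17, and all 6 coenzyme Q genes lie below zero in the subadult.

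Carriers made up 18 genes and 28 transcripts. As deposited, 6 carrier genes were higher in hibernation in both bears (SLC25A3, SLC25A23, SLC25A26.1, SLC25A28, SLC25A36 and SLC25A40), 2 were lower (SLC25A11 and SLC25A32) and 10 went in opposite directions, while under median-ratio scaling the first 2 counts were 4 and 6. Of all genes as deposited, 48.7% were higher in both bears, 16.1% lower and 35.1% opposite. Under median-ratio scaling 1507 of all 4873 genes were higher in both bears and 1507 lower. The carriers' median log2 change as deposited was -0.09 for the subadult and 0.17 for the adult.

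SLC25A3, the phosphate carrier that supplies phosphate for ATP synthesis, had the largest mean change of the carrier genes. Its transcript isotig29660 (905 bases) stood at 11.03 (subadult) and 8.83 (adult) RPKM in hibernation, against 5.21 and 5.997 in activity. Both hibernating values lay above both active values. The log2 change was 1.01 (subadult) and 0.52 (adult), with a mean of 0.77 ± 0.23 (SE), a limma unadjusted p of 0.0163 and an adjusted p of 0.541, and the score was 0.768.

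SLC25A28, the iron importer mitoferrin-2, was higher in hibernation mainly in the subadult. Its transcript isotig13184 had 8.95 RPKM (hibernating) against 4.28 (active) in the subadult and 8.75 against 8.43 in the adult, with a mean log2 change of 0.52 ± 0.33 (SE) and an adjusted p of 0.655 by limma. The states did not overlap, but the adult's values differed by 0.05 on the log2 scale. All 4 transcripts of SLC25A28 were higher in hibernation in both bears, and isotig25307 had log2 changes of 1.43 and 0.49 at 2.07 to 6.43 RPKM.

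SLC25A11, which exchanges oxoglutarate for malate in the malate-aspartate shuttle, had the highest mean RPKM of the carriers analysed, by the transcript with the most reads. It was at 204.4 RPKM when the subadult was active and 150.4 when it hibernated, and at 239.0 and 195.6 in the adult, from a transcript of 316 bases (isotig46106). Both hibernating values lay below both active values, with a log2 change of -0.36 ± 0.26 (SE) and an adjusted p of 0.685 by limma. The second most abundant carrier was SLC25A34 (isotig16294). In the subadult it was at 14.5 RPKM in hibernation and 40.4 in activity, and in the adult at 32.4 in hibernation and 21.2 in activity. The bears thus differed in direction, by -1.45 (subadult) and 0.60 (adult) on the log2 scale, and the mean change of -0.42 ± 0.47 (SE) was smaller than its error.

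SLC25A5, an ADP/ATP translocase, showed the same arrangement at a lower level. It was at 11.1 RPKM in hibernation against 15.2 in activity for the subadult, and at 15.9 against 9.19 for the adult. UCP2, an uncoupling protein homologue of the inner membrane, was at 2.46 (subadult) and 6.20 (adult) RPKM in hibernation, against 5.06 and 3.91 in activity. In both genes the active subadult exceeded the hibernating subadult and the active adult lay below the hibernating adult, and the mean log2 changes were 0.16 ± 0.32 (SE) for SLC25A5 and -0.15 ± 0.42 (SE) for UCP2, the former reaching -0.001 under median-ratio scaling.

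Of the other carriers higher in hibernation in both bears, SLC25A23, an ATP-Mg/phosphate carrier, had log2 changes of 0.35 and 0.32 in subadult and adult, and SLC25A26.1, named after the S-adenosylmethionine carrier, had 0.19 and 0.20, with no overlap of the states in either gene. SLC25A36, a pyrimidine nucleotide carrier, was at 10.4 RPKM in hibernation against 7.53 in activity for the subadult and at 4.53 against 3.73 for the adult, so the bears differed more than the states. SLC25A32, a folate carrier, was lower in both, by -0.35 and -0.25, with overlapping states. SLC25A17, the peroxisomal member of the family, had 0.62 and -0.09, and SLC25A40, SLC25A41, SLC25A42 and SLC25A43 had changes between -0.19 and 0.25 in either bear.

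Chosen after the values were seen, the citrate carrier SLC25A1 had the same pattern, with 8.19 RPKM in hibernation against 14.1 in activity for the subadult and 9.84 against 5.88 for the adult. SLC25A13, the aspartate-glutamate carrier citrin, had log2 changes of -0.20 (subadult) and 0.75 (adult), and SLC25A25, an ATP-Mg/phosphate carrier, -1.13 and 0.13. In all, 13 of the 39 genes were lower in the hibernating subadult but higher in the hibernating adult, 33.3% against 23.4% of all genes. They were 7 carriers (SLC25A1, SLC25A5, SLC25A13, SLC25A25, SLC25A34, SLC25A41 and UCP2), 2 coenzyme Q genes (COQ2 and COQ6), 2 proteases (CLPP and CLPX), IMMT and TIMM23. Only 3 genes went the other way (SLC25A17, SLC25A42 and SLC25A43). The log2 change exceeded 0.5 in each direction in 3 genes, SLC25A1, SLC25A34 and UCP2.

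Those 13 genes were selected by direction, so only the active subadult or the hibernating adult could be their highest library. The highest of the 4 libraries was the active subadult in 8 of them. Over all 39 genes it was the hibernating adult in 14 (35.9%, against 30.1% of all genes), the active subadult in 13 (33.3%, against 20.3%), the hibernating subadult in 8 (20.5%, against 37.3%) and the active adult in 4 (10.3%, against 12.3%). The lowest was the hibernating subadult in 13 (33.3%, against 22.3%), the active adult in 13 (33.3%, against 35.6%), the active subadult in 10 (25.6%, against 30.8%) and the hibernating adult in 3 (7.69%, against 11.4%). The active subadult was the library with the highest summed connective tissue level, carried by 3 of the 5 genes. The fast myosins of the fibre list did not run together in the subadult, where MYH1 was at 2054 RPKM hibernating and 4823 active and MYH2 at 3841 and 2755. The part of fibre and connective tissue markers in the members' values was not tested.

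**Figure D3:**
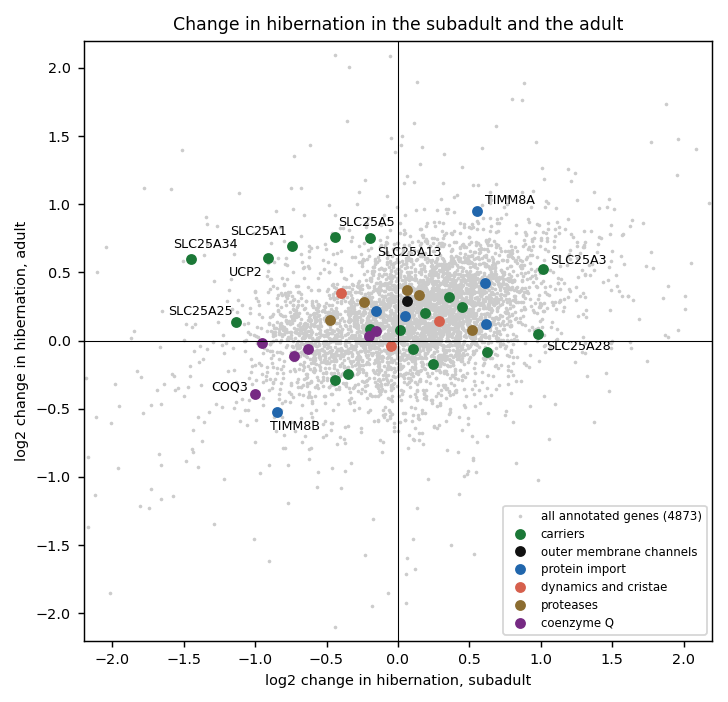
Log2 change in hibernation in the subadult (x) against the adult (y). Grey dots are the annotated genes, of which 34 lie outside the axes, and coloured dots the 39 member genes by role, with 11 gene names written beside their dots. Of the member genes, 13 lie in the upper left quadrant, lower for the subadult but higher for the adult, and 15 in the upper right.

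Across the 39 genes, the log2 changes of the bears had a Pearson r of 0.129, against 0.32 across all 4873 genes. Genes within a pair of libraries share depth and scaling, and the value is a description.

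The outer membrane channel VDAC1, the main pore for metabolites and ATP, was the most abundant member. Its transcript contig00060 (814 bases) was at 339.7 RPKM when the subadult was active and 354.6 when it hibernated, and at 333.3 and 408.7 in the adult. Both hibernating values lay above both active values, although the subadult's differed by only 0.06 on the log2 scale. The mean log2 change was 0.18 ± 0.26 (SE), with an adjusted p of 0.809 by limma, and it became 0.01 under median-ratio scaling. A second transcript, contig00063, had a log2 change of 0.11.

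Protein import held 6 genes and 16 transcripts. As deposited, 4 import genes were higher in hibernation in both bears (TIMM8A, TIMM10, TOMM5 and TOMM40), TIMM8B was lower in both and TIMM23 went in opposite directions, and under median-ratio scaling TIMM8A and TOMM40 remained higher in both bears and TIMM8B lower. Of all genes as deposited, 48.7% were higher in both bears, 16.1% lower and 35.1% opposite, and no test over the 6 genes was run. With median-ratio scaling, 1507 of all 4873 genes were higher in both bears and 1507 lower. The median log2 change of the import genes was 0.30 (subadult) and 0.20 (adult), above the medians of 0.13 and 0.17 over all genes.

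TIMM8A and TIMM8B, close relatives that both form small chaperones carrying hydrophobic proteins across the intermembrane space, differed in opposite directions. TIMM8A (isotig26121, 1295 bases) was at 9.81 RPKM in hibernation against 6.51 in activity for the subadult, and at 10.6 against 5.26 for the adult. Both bears were at least 1.5-fold higher in hibernation, by 0.56 and 0.95 on the log2 scale, and the states did not overlap. The mean log2 change was 0.75 ± 0.22 (SE), with a limma unadjusted p of 0.0156, an adjusted p of 0.541 and a score of 0.759.

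TIMM8B was lower in hibernation in both of its transcripts. The longer, isotig20296 (917 bases), was at 11.9 (subadult) and 12.3 (adult) RPKM in hibernation, against 21.8 and 17.8 in activity, with a mean log2 change of -0.68 ± 0.22 (SE) and an adjusted p of 0.541 by limma. The shorter, isotig20297 (507 bases), was at 18.4 and 39.8 RPKM in the subadult and at 21.8 and 32.8 in the adult, in hibernation and activity. Its hibernating values lay well below its active values in both bears. The log2 changes of isotig20297 were -1.10 and -0.58, the mean was -0.84 ± 0.22 (SE), the limma unadjusted p was 0.0104 and the score was 0.833, the only member transcript lower in hibernation to reach 0.8. Calculated from the adult alone its score no longer reached 0.8.

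TOMM40, the pore of the TOM complex, was at 13.2 RPKM when the subadult was active and 20.4 when it hibernated, and at 16.2 and 21.9 in the adult (isotig17295, 1521 bases). The log2 change was 0.61 (subadult) and 0.42 (adult), and the states did not overlap. The mean was 0.52 ± 0.22 (SE), with a limma unadjusted p of 0.0553, an adjusted p of 0.564 and a score of 0.663. With the bear as a block the unadjusted p by limma was 0.0394 and the adjusted p 0.356. TOMM5, a small TOM subunit, was at 37.7 RPKM when the subadult was active and 58.1 when it hibernated, and at 40.2 and 43.8 in the adult, a mean log2 change of 0.37 ± 0.23 (SE). The difference came mostly from the subadult. TIMM23, the channel of the presequence translocase, lay between 27.7 and 32.4 RPKM in all libraries with overlapping states and a log2 change of 0.03, which became -0.13 under median-ratio scaling. TIMM10 lay between 2.40 and 2.93 RPKM.

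**Figure D4:**
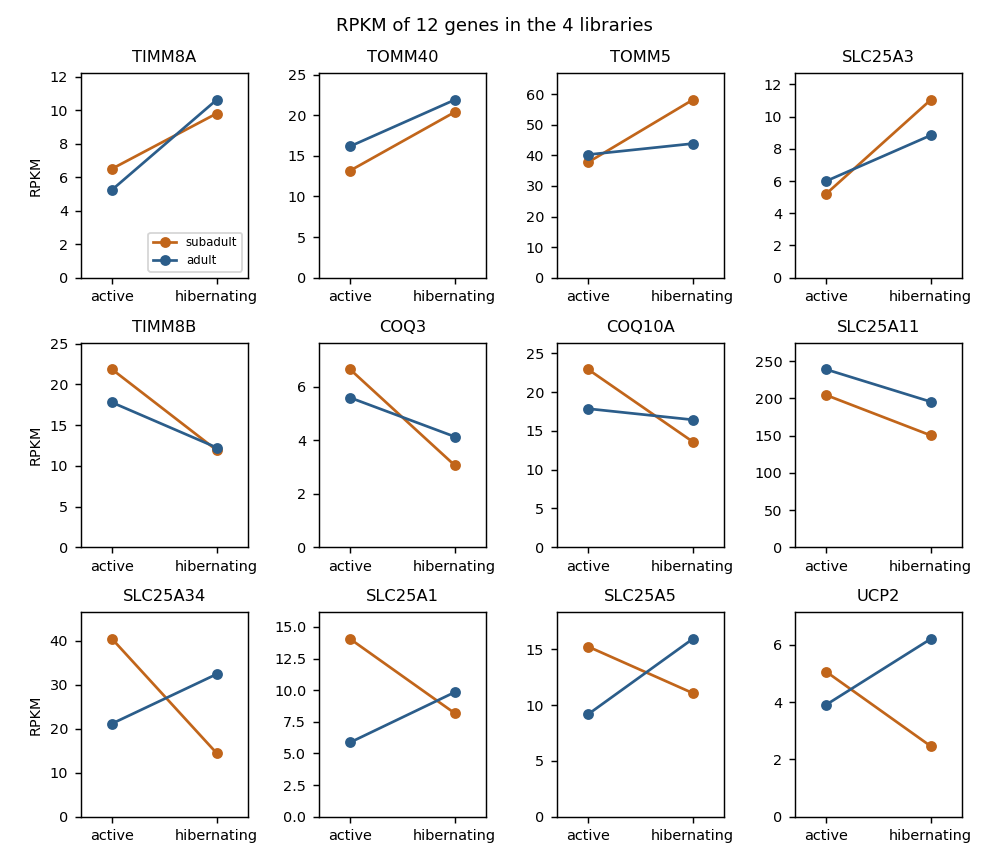
RPKM (y, linear from zero) in activity and hibernation (x) of 12 genes by the transcript with the most reads, with 1 line per bear (subadult orange, adult blue). The panels were chosen after the values were seen. In the upper row hibernation lies higher in both bears, in the middle row lower in both, and in the lower row the lines cross, with hibernation lower for the subadult but higher for the adult.

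Mitochondrial dynamics and cristae were represented by 3 genes with 18 transcripts. MFN2, which fuses outer membranes, was at 19.4 RPKM in hibernation against 15.8 in activity for the subadult, and at 26.5 against 23.9 for the adult. Both bears were higher in hibernation, but the difference between the bears was larger than that between the states, and the log2 change was 0.22 ± 0.29 (SE). OPA1, which fuses inner membranes, was at 1.79 and 1.88 RPKM in the subadult and at 1.49 and 1.54 in the adult, in hibernation and activity, near the lowest deposited level. IMMT, the core of the complex at cristae junctions, was at 6.99 RPKM in hibernation against 9.35 in activity for the subadult, and at 9.77 against 7.55 for the adult, so that its states overlapped and its mean log2 change was -0.02 ± 0.26 (SE). No transcript of these 3 genes had non-overlapping states.

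The protease group held 5 genes and 13 transcripts, including LONP2, the peroxisomal Lon protease that the rule takes in by name. As deposited, AFG3L2, LONP1 and LONP2 were higher in hibernation in both bears, as were 48.7% of all genes. CLPP and CLPX went in opposite directions, as did 35.1% of all genes. Under median-ratio scaling only LONP1, and under upper-quartile scaling none, was higher in both bears, and CLPP was lower in both. With these scalings 1507 and 1605 of all 4873 genes were higher in both bears, and 1507 and 1421 were lower. AFG3L2, a subunit of the inner membrane AAA protease, was the most abundant, at 57.2 (subadult) and 63.4 (adult) RPKM in hibernation, against 39.8 and 59.9 in activity. The active adult lay above the hibernating subadult, so the states overlapped, and the log2 change was 0.30 ± 0.27 (SE). LONP1, the ATP-dependent protease of the matrix, was at 26.4 and 23.8 RPKM in the subadult and at 29.8 and 23.5 in the adult, in hibernation and activity. Its states did not overlap, with a log2 change of 0.24 ± 0.20 (SE) and an adjusted p of 0.710 by limma. LONP2 was at 12.5 and 12.01 RPKM for the subadult and at 14.2 and 10.9 for the adult in the same order. CLPP, the peptidase subunit of the matrix Clp protease, had log2 changes of -0.47 and 0.15, and its unfoldase partner CLPX had -0.24 and 0.29 at 1.501 to 3.16 RPKM. A short LONP1 transcript, isotig32623 (723 bases), had the opposite order at 1.19 to 2.91 RPKM, with a log2 change of -0.51 ± 0.28 (SE) and a limma unadjusted p of 0.124, or 0.0333 with the bear as a block.

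The coenzyme Q group held genes of the biosynthesis pathway and COQ10A, which the rule takes in by name. It had the lowest median change of the role groups. Of its 6 genes (20 transcripts), COQ3, COQ5, COQ7 and COQ10A were lower in hibernation in both bears, as were 16.1% of all genes. COQ2 and COQ6 were lower only in the subadult, while under median-ratio and upper-quartile scaling all 6 were lower in both. Under these scalings 1507 and 1421 of all 4873 genes were lower in both bears, against 783 as deposited. The median log2 change was -0.68 (subadult) and -0.04 (adult), so the difference was carried by the subadult. Of the 6 genes, COQ3 alone had an unadjusted p under 0.05, lower in hibernation, as did 1.66% of all genes, and 0 had an adjusted p under 0.05 by limma.

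COQ3, a methyltransferase of the pathway, was at 3.06 (subadult) and 4.13 (adult) RPKM in hibernation, against 6.64 and 5.59 in activity (isotig02205, 1723 bases). Both hibernating values lay below both active values. The log2 changes were -1.002 and -0.39, with a mean of -0.70 ± 0.25 (SE), a limma unadjusted p of 0.0320, an adjusted p of 0.549 and a score of 0.700. The second transcript, isotig02208, gave -0.80 ± 0.26 (SE).

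COQ10A, a lipid-binding protein needed for coenzyme Q to work in the respiratory chain, was the most abundant of the group. Its transcript isotig07500 was at 22.9 RPKM when the subadult was active and 13.6 when it hibernated, and at 17.9 and 16.4 in the adult, a log2 change of -0.42 ± 0.24 (SE). The states did not overlap, and all 6 COQ10A transcripts had this order. COQ7, a hydroxylase of the pathway, was at 1.29 RPKM in the hibernating subadult, from 32 reads, and at 2.96 in the active subadult, against 3.69 and 3.75 in the adult. Its log2 change of -0.49 ± 0.42 (SE) rested on the hibernating subadult and was 0.13 without that library. COQ6, a monooxygenase, lay between 9.75 and 12.9 RPKM with overlapping states. COQ5, a methyltransferase, had log2 changes of -0.63 and -0.06.

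A single transcript named COQ2 differed from the others of this gene, which encodes the prenyltransferase that joins the side chain to the ring. Isotig34097 (656 bases) was at 5.997 RPKM in hibernation against 1.28 in activity for the subadult, and at 4.39 against 1.40 for the adult. Both hibernating values were more than 3-fold above both active values, from 41 reads in the lowest library. The log2 changes were 1.87 and 1.37, the mean was 1.62 ± 0.24 (SE), the limma unadjusted p was 0.000577 and the adjusted p 0.541, and the score was 0.865, the only member transcript higher in hibernation to reach 0.8. With 1 library left out, where the lone library of a state is assumed to vary like the others, the adjusted p by limma was 0.0071 without the hibernating adult, 0.0976 without the hibernating subadult, 0.594 without the active adult and 0.838 without the active subadult. A minimum mean of 5 RPKM removed the transcript. The other 7 COQ2 transcripts had log2 changes of -0.09 to 0.11, and the one with the most reads, isotig10524 (1537 bases), was at 3.61 and 4.23 RPKM in the subadult and at 4.22 and 4.10 in the adult. Gene names came from similarity to human proteins, and whether isotig34097 belongs to COQ2 was not tested.

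Of the 20 genes with more than 1 transcript (78 transcripts), 6 had all transcripts higher on average, 8 had all lower and 6 had some in each direction. The latter were TIMM10 with 8 higher and 1 lower, COQ2 with 3 and 5, AFG3L2 with 3 and 3, SLC25A42 with 3 and 1, and LONP1 and SLC25A23 with 1 and 1. In TIMM10, a small chaperone of the intermembrane space, the changes ran from -0.03 to 0.16 on the log2 scale at 1.09 to 3.24 RPKM. In SLC25A42, a coenzyme A carrier, they ran from -0.07 to 0.12. In AFG3L2 they ran from -0.28 to 0.30, with the transcript that carried most reads at the upper end.

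**Figure D5:**
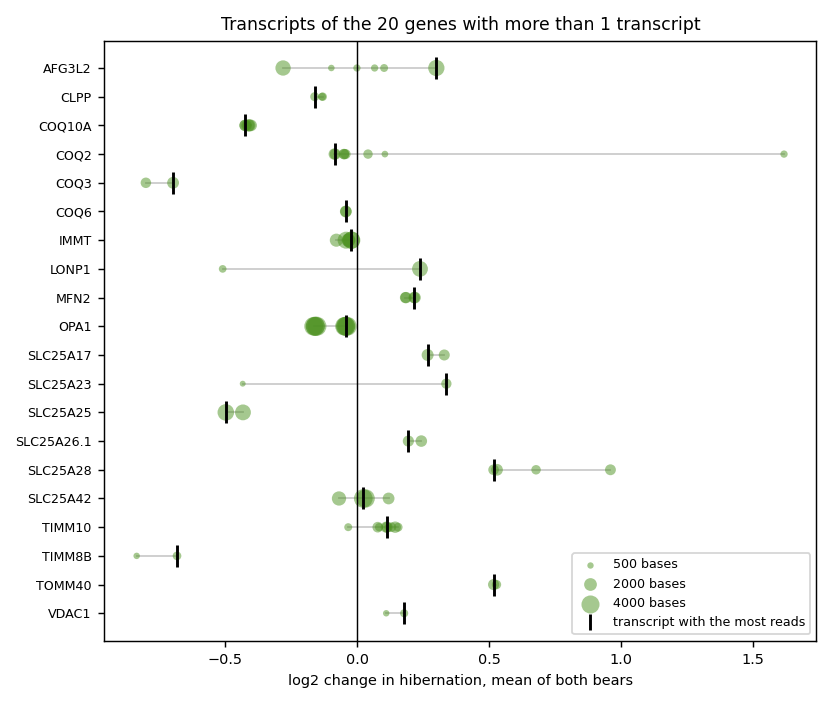
Mean log2 change in hibernation (x) of every transcript of the 20 member genes with more than 1 transcript (y). Dot area grows with transcript length, and the black bar marks the transcript with the most reads. COQ2 isotig34097 stands at 1.62 while the other COQ2 transcripts lie within -0.09 to 0.11.

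Companion genes of mitochondrial biogenesis, import and quality control, from a list outside the rule, gave 37 genes and 72 transcripts. Of these genes, 13 were higher in hibernation in both bears (35.1%, against 48.7% of all genes), 5 were lower (13.5%, against 16.1%) and 19 opposite (51.4%, against 35.1%), with a median log2 change of -0.09 in the subadult and 0.12 in the adult. None reached a score of 0.8 or an adjusted p under 0.05 by limma, and 4 had an unadjusted p under 0.05, all higher in hibernation (10.8%, against 7.84% of all genes). These 4, named after their values were seen, were the protease PARL (log2 change 0.60 ± 0.22, SE), the nucleoid-associated ATPase ATAD3A (0.60 ± 0.22), the coactivator PPARGC1B (0.53 ± 0.22) and the dynamics factor SMCR7 (0.68 ± 0.23). The most abundant companions were the pyruvate carrier subunit BRP44, at 226.0 and 142.1 RPKM in the subadult and 156.5 and 151.7 in the adult in hibernation and activity, and MINOS1, a cristae junction protein, at 129.9, 197.9, 133.9 and 131.9 in the same order. Each of them differed mainly in the subadult, in opposite directions.

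The mitochondrial genome itself was represented by 5 genes (7 transcripts), all subunits of the respiratory complexes. MT-ND2 was at 1959 (subadult) and 2046 (adult) RPKM in hibernation, against 2921 and 2905 in activity. Its states did not overlap, with log2 changes of -0.58 and -0.51, a mean of -0.54 ± 0.36 (SE) and an adjusted p of 0.665 by limma. MT-ND4 was lower in hibernation in both bears (log2 changes of -0.38 and -0.10), and the transcripts with the most reads of MT-CO3, MT-ND1 and MT-ND5 went in opposite directions in the bears. The second transcripts of MT-ND1 (log2 changes of 0.01 and 0.12) and MT-ND5 (0.06 and 0.07) were slightly higher in both.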

How the data were processed

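The authors assembled transcripts from pyrosequencing reads (Newbler) and paired-end Illumina reads (SOAPdenovo), named them by BLAST against human proteins, aligned the single-end reads with SOAP2 and deposited RPKM per transcript and library, with the transcript length. Columns were assigned to the subadult and adult through the supplementary table, in which 9072 of 9092 transcripts found had the same 4 values. Pooled and paired-end libraries were not analysed here. The deposited files name no genome build, so no coordinates are given.

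From the deposited RPKM, log2(RPKM + 0.5) of 2 hibernating and 2 active libraries was compared in R 4.3.3 by limma 3.58.1 (two-sided, prior variance with a trend, p-values adjusted after Benjamini and Hochberg for 9093 annotated transcripts). The score used raw RPKM and 53228 differences between the bears within a state over all transcripts. Both were run on simulated data whose planted changes were larger than any member's change. Those runs do not show whether changes of the members' size can be detected. No count test was run. RPKM times length was a whole number of reads within 0.1 for 96.3% to 97.6% of low values. Libraries of a bear come from 1 animal, so the bear pairs the samples, and deviations in hibernation and activity had r = 0.356 across annotated transcripts. Gene values use the transcript with the most reads.

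Members and gene lists were chosen with earlier results of these data known. Named by a fixed rule are the 2 most abundant genes of each role, transcripts with a score of at least 0.8, the 5 largest rises and falls with both bears alike, and a fixed list of well-known members. Other members, such as SLC25A40, CLPP and COQ5, are named outside this rule. Gene symbols were matched to the RefSeq bear table (UrsArc2.0) for 34 of 39 genes. Python 3.11.15, pandas 2.3.3, numpy 2.4.6 and matplotlib 3.10.9 handled tables and plots. Alternatives covered scaling, pseudocount, filter, block, prior and libraries left out.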

Additional observations from a re-analysis of the deposited data

How the results depend on the processing

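Of 23 transcripts named by the fixed rule, 14 kept their direction in the 11 or 12 alternatives run for each and 9 did not. Among the 23, 5 lay under the minimum of 5 RPKM and lack that alternative. Members named outside the fixed rule are not in these counts. Median-ratio scaling gave 10 member transcripts lower at an unadjusted p under 0.05 (4 as reported), 2 lower with a score of at least 0.8 (1), 7 higher and 33 lower without overlap of the states (19 and 15), and 2 companion genes with a score of at least 0.8 (0). Upper-quartile scaling gave 3 lower by score and 2 companions. A minimum mean of 5 RPKM left 3 higher and 2 lower at an unadjusted p under 0.05 and 0 higher by score, and a score threshold of 0.9 left 0 in each direction. With the bear as a replicate block, 7 were higher and 5 lower at an unadjusted p under 0.05, adding TOMM40 isotig17295, SLC25A28 isotig13185 and LONP1 isotig32623, and the smallest adjusted p of a member by limma was 0.340, so the block changed no adjusted call. SLC25A5 was at -0.001 under median-ratio scaling, and TIMM23 at -0.13 and -0.12 under median-ratio and upper-quartile scaling.

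Leaving out libraries in turn gave 2 to 7 transcripts higher and 0 to 12 lower at an unadjusted p under 0.05 (2 and 0 without the hibernating subadult, 12 lower without the hibernating adult) and 0 to 1 at an adjusted p under 0.05. States did not overlap for 27 to 44 higher and 21 to 39 lower, but 2 libraries against 1 separate more easily by construction, and the shares over all annotated transcripts were 47.6% to 52.6% and 17.0% to 26.1%. With 1 bear left out, 2 to 6 were higher and 0 to 7 lower by score, the upper ends without the adult. The log2 change ranged with a library or bear left out from -0.24 to 0.15 for COQ6, -1.10 to 0.13 for COQ7, -0.40 to 0.35 for IMMT, -0.076 to 0.51 for MFN2, -0.16 to 0.068 for OPA1, -1.45 to 0.60 for SLC25A34, -0.44 to 0.76 for SLC25A5, -0.16 to 0.22 for TIMM23 and -0.91 to 0.60 for UCP2. The median over member genes, 0.03, ranged from -0.15 without the adult to 0.17 with a minimum mean of 5 RPKM. The median over all genes in these 2 settings was 0.13 and 0.19, against 0.15 as reported. The causes of these shifts were not tested. For the counts by unadjusted p and by score in the alternatives, shares over all annotated transcripts are not given. In those counts a change in the members cannot be told apart from a change in the whole table.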
